A study of Homo sapiens with 8 samples.

Results

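The RNA levels of the genes of cholesterol and fatty acid synthesis were followed in H9, an established human embryonic stem cell (hESC) line. The members came from a list of 31 genes given by symbol: 18 enzymes of the sterol branch, 7 of the fatty acid branch, and 6 regulators and carriers. Of the 31 genes, 30 were found among the 57773 genes counted, and all 30 passed the expression filter, as did 23474 genes in all. ACACA, of the fatty acid branch, could not be matched to an identifier of the count files and was not analysed here, which left 6 members in that branch.

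Each of 4 conditions had 2 libraries of rRNA-depleted RNA, all from H9 cells kept in mTeSR1 medium. WT cells were untreated and carried an HA tag on the endogenous CHD7 gene (genotype CHD7-HA). CHD7 knockout cells (CHD7 -/-) lacked the chromatin remodeler CHD7 and were untreated. HERVH knockdown cells had the WT genotype and were treated for 24 h with LNA-GapmeRs, antisense oligonucleotides against the transcripts of the endogenous retrovirus HERVH. HERVH element deleted cells had lost a HERVH copy on chromosome 2 by CRISPR-Cas9 and were untreated. The labels do not name the clone behind the CHD7 knockout or the HERVH element deleted libraries, so that clone and genotype cannot be told apart. The WT libraries were untreated cells and not cells given a control oligonucleotide, so that transfection and loss of HERVH RNA cannot be told apart either. Nothing in the labels says that the 2 replicates were separate cultures, and the p-values then measure the spread between these samples, which may be technical.

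Cholesterol and fatty acids are both built from cytosolic acetyl-CoA. The sterol branch condenses it to mevalonate, turns mevalonate into isoprenoid units and squalene, closes squalene to lanosterol, and trims lanosterol to cholesterol. The fatty acid branch takes acetyl-CoA made from citrate and builds, lengthens and desaturates acyl chains. The branches share their transcriptional control. SREBF2 and SREBF1 encode membrane-bound SREBP transcription factors, SCAP escorts them out of the endoplasmic reticulum when sterols are low, and INSIG1 and INSIG2 hold them back when sterols are plentiful. In general, SREBF2 acts mainly on sterol genes and SREBF1 mainly on fatty acid genes, and SREBPs bind beside the factor NF-Y at many of their target promoters.

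Promoter sequence is shown first because it is a feature that the list did not use. RefSeq start sites on GRCh38.p14 gave promoters for 27 of the 31 listed genes (ACAT2, FASN, FDFT1 and SQLE had no entry), and the 250 bases before each start were searched on both strands. The NF-Y box CCAAT was found in 19 of the 27 genes (70.4%) and in 37% of the 27305 genes of the promoter table. It was present in 13 of 15 sterol branch genes, in 3 of 6 fatty acid branch genes and in 3 of 6 regulators and carriers. A letter string like the SREBP site, TCACNCCA, was found in 3 of the 27 genes (11.1%) and in 3.92% of all genes, and the E-box CACGTG in 3 of the 27 (11.1%) and in 7.73% of all genes. Genes can have more than 1 start site, and by windows the NF-Y box was in 23 of 37 windows of these genes and in 32% of all windows. The 3 matches to TCACNCCA are shown with the match in capitals. Each has an NF-Y box within 27 bases of it, which for SREBF2 lies outside the stretch shown:
MSMO1 promoter, chr4:165327493-165327540, plus strand: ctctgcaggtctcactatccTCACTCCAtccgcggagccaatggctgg
MVK promoter, chr12:109573579-109573626, plus strand: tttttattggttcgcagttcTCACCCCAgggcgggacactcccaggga
SREBF2 promoter, chr22:41832952-41832999, plus strand: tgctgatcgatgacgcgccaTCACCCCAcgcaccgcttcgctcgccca
The matches begin 156, 195 and 133 bases before the start of MSMO1, MVK and SREBF2. The NF-Y boxes nearest to the start are shown in capitals, CCAAT or its reverse complement ATTGG, for the sterol members whose levels are described in most detail:
HMGCS1 promoter, chr5:43313488-43313532, minus strand: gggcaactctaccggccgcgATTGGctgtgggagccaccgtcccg
IDI1 promoter, chr10:1048949-1048993, minus strand: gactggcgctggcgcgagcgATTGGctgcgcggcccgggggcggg
LSS promoter, chr21:46228900-46228944, minus strand: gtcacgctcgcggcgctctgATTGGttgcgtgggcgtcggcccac
MVD promoter, chr16:88663152-88663196, minus strand: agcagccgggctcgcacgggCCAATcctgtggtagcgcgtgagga
TM7SF2 promoter, chr11:65111778-65111822, plus strand: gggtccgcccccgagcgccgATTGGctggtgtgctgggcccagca
These boxes begin 100, 87, 150, 85 and 74 bases before the starts of HMGCS1, IDI1, LSS, MVD and TM7SF2. PMVK and CYP51A1 had none of the 3 letter strings in this window.

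The libraries held 14802049 to 23156445 reads counted on genes. Values are CPM, which are counts relative to library sizes adjusted by TMM, and 3 counts, taken as the floor, corresponded to 0.128 to 0.218 CPM (counting error only). CHD7 itself was at 651 and 649.5 CPM in the WT libraries and at 197.3 and 197.2 CPM in the CHD7 knockout libraries (log2 fold change -1.72, FDR = 2.25e-05, edgeR quasi-likelihood test). HERVH copies as such are not features of these counts, and annotated transcripts that overlap them were not examined. The knockdown and the deletion were therefore not checked here. By qPCR, the paper reports a partial reduction of HERVH RNA after the GapmeRs, and by RNA-seq a reduction of part of the expressed HERVH copies. For the deletion, it reports PCR of the locus and, by RNA-seq, loss of RNA from the deleted copy. In HERVH knockdown replicate 2, 8.87% of the counts came from the most abundant 10 genes, and 4.09% to 5.08% in each of the remaining 7 libraries. The hESC label was met: all 12 pluripotency markers were expressed and none was called in any comparison by edgeR or DESeq2 (1 or 2 had an unadjusted p below 0.05 in each), and 12 of 18 differentiation markers had at most 11 counts in every library. Of these 12, TTR was at 0 in every library. COL1A1 carried most of the summed level of the 18. That sum was 76.9 to 90.5 CPM in WT, 126 to 128 in CHD7 knockout, 110 to 285 in HERVH knockdown and 65.1 to 68.4 in HERVH element deleted cells. The endoderm factor FOXA2, at 30 and 106 counts in WT, fell to 7 and 13 in CHD7 knockout cells (FDR = 0.0317) and was at 93 and 94 in HERVH element deleted cells. In HERVH knockdown cells it was at 188 and 133 counts, a log2 fold change of 1.66 that DESeq2 called (FDR = 0.012) and edgeR did not (FDR = 0.0719). Of the 6 differentiation markers that passed the filter, 3 had an unadjusted p below 0.05 in the knockdown by edgeR, FOXA2 and, also with positive log2 fold changes, AFP (1.68, FDR = 0.113) and COL1A1 (1.26, FDR = 0.0653), the last at 93.6 CPM in replicate 1 and 269 CPM in replicate 2. The part of these markers in the knockdown values of the members was not tested. In bulk RNA, fewer cells of a type and less RNA per cell cannot be told apart.

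In WT cells, the fatty acid branch was the more highly expressed. Levels between genes are given per length, as RPKM over the merged exonic bases of all annotated transcripts. These lengths came from a later annotation release than the one on which the reads were counted. A length such as the 9018 bases of MVK may hold bases that were not counted or are rarely transcribed. The order of genes by RPKM is uncertain to that extent. FASN, the fatty acid synthase, stood highest at 241 ± 62.7 RPKM (SD, n = 2), followed by ACLY, which makes cytosolic acetyl-CoA from citrate, at 146 ± 16.4 RPKM, and SCD, the desaturase of saturated chains, at 141 ± 11.8 RPKM. FDFT1, the squalene synthase, led the sterol branch at 58.7 ± 4.51 RPKM, before FADS2 at 48 ± 11.3 and SREBF2 at 46 ± 3.01 RPKM. SQLE, the squalene epoxidase, was at 37.4 ± 3.16 RPKM and ACAT2, the thiolase that makes acetoacetyl-CoA, at 33.4 ± 9.22 RPKM. At the low end were HSD17B7 at 5.3 ± 0.742 RPKM, INSIG2 at 1.69 ± 0.193, mevalonate kinase MVK at 1.4 ± 0.249 and the lanosterol demethylase CYP51A1 at 0.965 ± 0.269 RPKM. The other members lay between 9.14 and 29.9 RPKM. Of the 29 pairs of neighbours in this order, 23 differed by less than the sum of their SDs, and the 6 steps beyond it followed FASN, SCD, SREBF2, ELOVL6, SC5D and HSD17B7. CYP51A1 had 66 to 231 counts per library, and 3 pseudogenes carry its name, so its values are uncertain. FDPS (8 named pseudogenes), IDI1 (3), HSD17B7 (2) and SCD (1) share this limit. Exons of a gene on the opposite strand cover 37.68% of the exonic bases of HMGCS1, 18.6% of FDPS, 17.2% of ACAT2 and 15% of IDI1, and the strand setting of the counting is not given in the sources used here, so reads of these pairs may not be told apart.

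**Figure D1:**
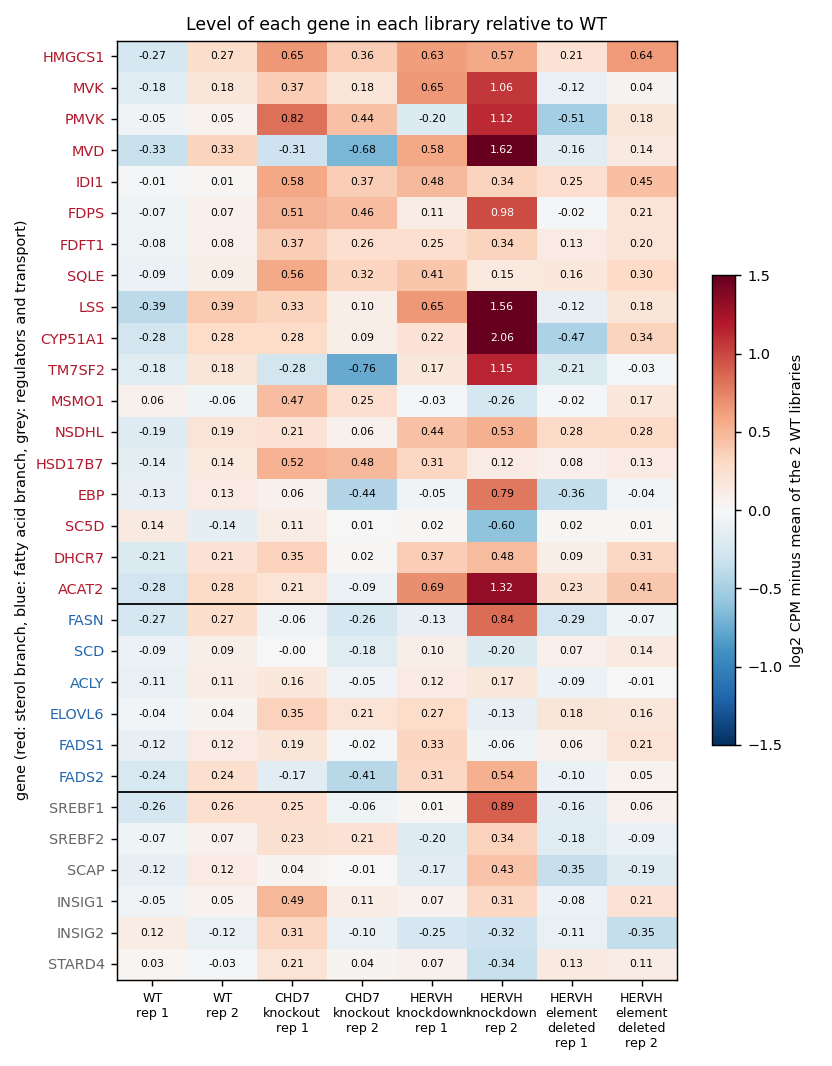
Each row is a gene and each column a library; colour and number give log2 CPM minus the mean log2 CPM of the WT libraries, from -1.5 (blue) to 1.5 (red). In HERVH knockdown replicate 2, LSS, MVD, CYP51A1 and ACAT2 lie above 1.3 and SC5D at -0.60, and in WT replicate 1 most sterol genes are below 0.

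The WT libraries did not have the same level of these genes, and this moved every comparison. Of the 18 sterol members, 16 were higher in WT replicate 2 than in WT replicate 1, with a median log2 difference of 0.32. All 6 fatty acid members were higher too (median 0.24), as were 4 of the 6 regulators and carriers (median 0.11), while the median over all 23474 genes tested was 0.016. LSS, the lanosterol synthase, was at 81.6 CPM in replicate 1 and 140 CPM in replicate 2, MVD, the mevalonate diphosphate decarboxylase, at 47.3 and 74.8 CPM, and HMGCS1, the HMG-CoA synthase, at 152 and 219 CPM. Among all 8 libraries, WT replicate 1 was the lowest for 11 of 18 sterol members (61.1%) and for 11.4% of all genes tested, and HERVH knockdown replicate 2 was the highest for 11 of 18 (61.1%) and for 27.1% of all genes. A correction for the GC content of genes left the WT differences at 0.24 in the sterol and 0.17 in the fatty acid branch.

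In HERVH knockdown cells most sterol genes had higher values than in WT cells, and edgeR called 1 member, ACAT2, and DESeq2 called 4. Of the 18 sterol members, 16 had a positive log2 fold change, with a median of 0.53 (all genes tested: 0.036), and the range was -0.26 to 1.40. Both knockdown libraries lay above both WT libraries for 11 of the 18 and for 14 of all 30 members, and below for 1 of the 30, against 22.5% and 22.3% of all genes. At an FDR below 0.05, 1 of 30 members was called, against 2.15% of all genes. At an unadjusted p below 0.05 there were 12, of which 11 were sterol members, against 19% of all genes. No member reached the study's threshold of FDR below 0.01 and at least 2-fold change, which 0.217% of all genes did.

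ACAT2 (chr6:160183077-160200144 on GRCh37, plus strand) rose. It was at 70.9 and 105 CPM in the WT libraries and at 140 and 216 CPM in the knockdown libraries, so that the groups did not overlap. Its log2 fold change of 1.01 (SE 0.22) passed edgeR's quasi-likelihood test (FDR = 0.0361). Without WT replicate 1 the change was 0.75 and the call was lost (FDR = 0.417), as it was when only the 4 libraries compared were fitted (FDR = 0.133), settings in which 0.0159% and 0.263% of all genes were called. Without knockdown replicate 2 it was 0.66 (FDR = 0.0242), in a fit that called 7.85% of all genes. A group with a library left out holds 1 library here, which the fit assumes to vary like the libraries of the other groups. The gene whose exons overlap ACAT2 on the opposite strand, TCP1, was at 289 and 318.5 CPM in WT and at 323.8 and 410.3 CPM in knockdown cells (log2 fold change 0.27), and its part in the change of ACAT2 was not tested.

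The members with the largest changes did not pass the threshold. CYP51A1 was at 3.23 and 4.82 CPM in WT and at 4.6 and 16.8 CPM in knockdown cells, with a log2 fold change of 1.40 (SE 0.48, FDR = 0.142), and replicate 1 lay within the WT values. Without knockdown replicate 2 the log2 fold change of CYP51A1 was 0.19, and without replicate 1 it was 2.01. MVD (chr16:88718343-88729569 on GRCh37, minus strand) was at 47.3 and 74.8 CPM in WT and at 89.2 and 183 CPM in knockdown cells (log2 fold change 1.16, SE 0.29, FDR = 0.0591). LSS (chr21:47608055-47648738 on GRCh37, minus strand) was at 81.6 and 140 CPM in WT and at 168 and 315 CPM in knockdown cells (1.12, SE 0.28, FDR = 0.0549). For both genes the groups did not overlap, and knockdown replicate 2 stood well above replicate 1. With each of the 4 libraries left out in turn, the log2 fold change ranged from 0.54 to 1.54 for MVD and from 0.59 to 1.57 for LSS, lowest in both without knockdown replicate 2. DESeq2's Wald test called 4 members, ACAT2 (FDR = 0.0023), LSS (FDR = 0.00428), MVD (FDR = 0.00506) and MVK (FDR = 0.0175), against 4.7% of all genes. MVK, chosen after its values were seen, was at 11 and 14.2 CPM in WT and at 19.7 and 26.1 CPM in knockdown cells (edgeR: 0.86, SE 0.22, FDR = 0.0661).

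The fatty acid branch had a smaller median of 0.14, with 5 of 6 members positive, 1 at an unadjusted p below 0.05 (FADS2) and none called. FASN, chosen after its values were seen, was at 1835 and 2662 CPM in WT and at 2021 and 3952 CPM in knockdown cells (log2 fold change 0.41, SE 0.25, FDR = 0.397), so that only replicate 2 was above WT. SCD, likewise, was at 694 and 782 CPM in WT and at 789 and 640 CPM in knockdown cells (-0.05, SE 0.15), and its 2 knockdown values lay on either side of WT.

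None of the regulators and carriers was called in the knockdown (smallest FDR = 0.303). SREBF1 was at 86.7 and 124 CPM in WT and at 105 and 192 CPM in knockdown cells (log2 fold change 0.50, SE 0.25), a difference that turned to -0.016 without knockdown replicate 2. SREBF2 was at 353 and 388 CPM and at 323 and 470 CPM (0.10, SE 0.17), and SCAP at 170 and 201 CPM and at 165 and 249 CPM (0.16, SE 0.18). For both, knockdown replicate 1 lay below WT and replicate 2 above. INSIG1 was at 55.8 and 59.6 CPM in WT and at 60.5 and 71.7 CPM in knockdown cells (0.20, SE 0.18), and INSIG2 at 7.2 and 6.13 CPM and at 5.58 and 5.32 CPM (-0.29, SE 0.27). These were without overlap, INSIG1 above and INSIG2 below WT. STARD4, a carrier of sterol between membranes, was at 58.6 and 56 CPM in WT and at 60 and 45.4 CPM in knockdown cells (-0.12, SE 0.17).

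**Figure D2:**
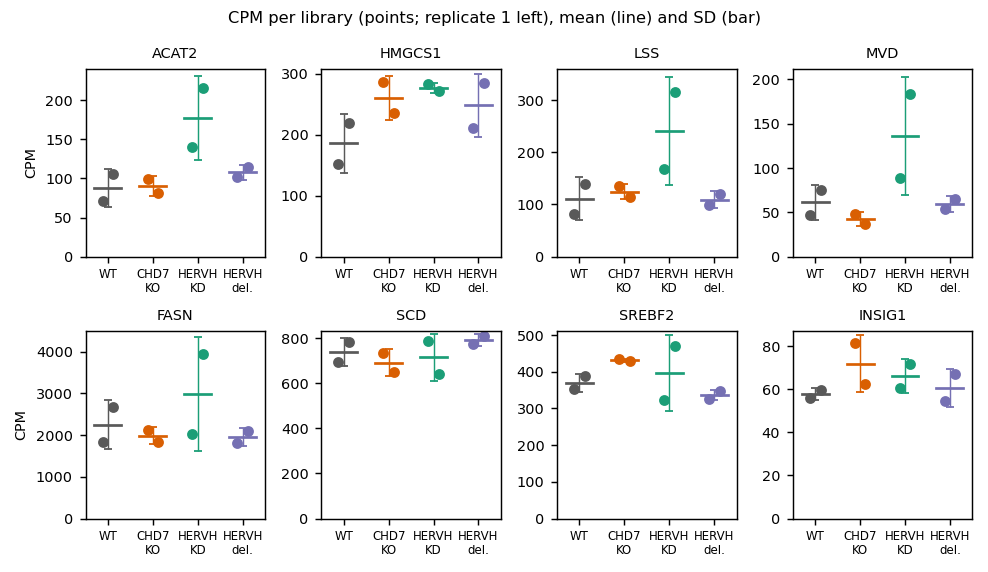
CPM of 8 genes in each library (points), with the mean (line) and SD (bar) of the 2 replicates of each condition, on axes that start at 0. The knockdown values of ACAT2, LSS and MVD lie above both WT values, while those of FASN and SREBF2 spread across or beyond them.

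The knockdown replicates differed from each other by GC content. Over the 30 members, the log2 difference between replicate 2 and replicate 1 had a Spearman correlation of 0.703 with the GC content of the exons, and over 12480 expressed genes of 0.718, as a description over genes of the same 2 libraries. Between the WT replicates the values were 0.507 and 0.425. In the 9 sterol members with a GC content above the branch median of 50.5%, the median change from the WT mean was 0.37 in replicate 1 and 1.06 in replicate 2. In the 9 others it was 0.31 and 0.34. With the GC correction, these medians were 0.45 and 0.71 in the upper and 0.29 and 0.35 in the lower GC members, so the sterol medians stayed above 0 in both replicates. The correction raised the number of called members to 6, namely HMGCS1, MVK, MVD, IDI1, LSS and ACAT2, with log2 fold changes of 0.48 (IDI1) to 1.05 (ACAT2), and the share of all genes called from 2.15% to 8.52%. HMGCS1, a member with a low GC content of 40.3%, was at 152 and 219 CPM in WT and at 283 and 271 CPM in knockdown cells, with the replicates close to each other (0.58, SE 0.19, FDR = 0.137 without and 0.0294 with the correction). Without knockdown replicate 1, 13 of 30 members were called, against 15.8% of all genes. Without replicate 2 there were 2, HMGCS1 and ACAT2, a share near the 7.85% of all genes. With no WT replicate 1, none was called, against 0.0159% of all genes.

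**Figure D3:**
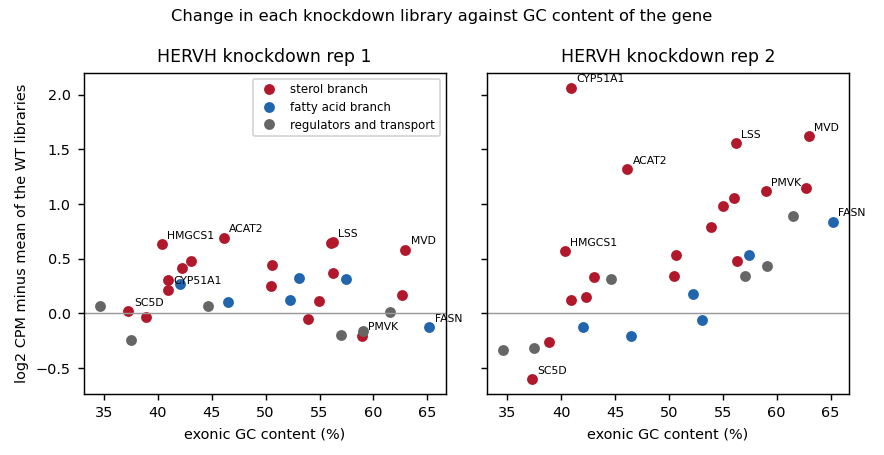
Each point is a gene, with its exonic GC content in percent on the x axis and its log2 CPM minus the WT mean on the y axis, for the knockdown replicates in turn. In replicate 2 the GC-rich genes lie higher than the GC-poor genes, and in replicate 1 no such slope is seen; ACAT2 and HMGCS1 are above 0.5 in both.

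CHD7 knockout cells showed smaller differences, again mainly in the sterol branch. Of the 18 sterol members, 15 had a positive log2 fold change, and the median was 0.23 (all genes tested: -0.012), with a range of -0.52 to 0.65. In the fatty acid branch, 3 of 6 were positive, with a median of -0.019, and all 6 regulators and carriers were positive, with a median of 0.12. No member was called by edgeR at an FDR below 0.05, against 1.81% of all genes, or by DESeq2, against 3.05%, and none reached the study's threshold, against 0.571% of all genes. At an unadjusted p below 0.05 there were 6 members by edgeR, all of the sterol branch, against 10.9% of all genes, and 7 by DESeq2, against 9.82%. Both knockout libraries lay above both WT libraries for 12 of 30 members, 8 of them sterol members, and below for 1 (TM7SF2), against 21.5% and 22.4% of all genes.

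The largest differences were in PMVK, MVD and TM7SF2. PMVK, the phosphomevalonate kinase, was at 10 and 10.7 CPM in WT and at 18.4 and 14.1 CPM in CHD7 knockout cells (0.65 on the log2 scale, SE 0.35, FDR = 0.578). MVD was at 47.3 and 74.8 CPM and at 48 and 37 CPM (-0.52, SE 0.29, FDR = 0.599), and the groups overlapped. TM7SF2, a sterol reductase, was at 28.4 and 36.6 CPM and at 26.6 and 19 CPM (-0.51, SE 0.28, FDR = 0.581), without overlap. Among the 6 members with an unadjusted p below 0.05, named after their values were seen, IDI1, the isomerase of the isoprenoid units, was at 45.7 and 46.7 CPM in WT and at 69.2 and 59.8 CPM in knockout cells (0.48, SE 0.16, FDR = 0.207). SQLE was at 151 and 171 CPM and at 237 and 201 CPM (0.44, SE 0.16, FDR = 0.233), and it was called when only the 4 libraries compared were fitted (FDR = 0.0416), a fit that called 5.79% of all genes. HMGCS1 was at 152 and 219 CPM and at 286 and 235 CPM (0.49, SE 0.19, FDR = 0.328). In these 3 genes and in PMVK, both knockout libraries exceeded both WT libraries.

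The regulators and carriers did not pass the threshold in CHD7 knockout cells either (smallest FDR = 0.615). INSIG1 was at 81.3 and 62.4 CPM against 55.8 and 59.6 CPM in WT (log2 fold change 0.32, SE 0.18), and SREBF2 at 435 and 429 CPM against 353 and 388 CPM (0.22, SE 0.17), both without overlap. STARD4 was at 66.2 and 58.9 CPM (0.13, SE 0.17) and also lay just above WT. INSIG2 was at 8.27 and 6.19 CPM (0.12, SE 0.26), SREBF1 at 123 and 99 CPM (0.08, SE 0.25) and SCAP at 191 and 184 CPM (0.01, SE 0.18), each overlapping WT.

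Part of the sterol differences in CHD7 knockout cells lay where neighbouring genes differed too. The median log2 fold change of the expressed genes within 5 Mb was 0.53 around PMVK (137 genes), 0.54 around FDPS, the farnesyl diphosphate synthase (139 genes), and 0.57 around HSD17B7 (54 genes), all on chromosome 1. The members themselves differed by 0.65, 0.49 and 0.49. Around MVD on chromosome 16 the neighbours had a median of -0.50 (63 genes), beside -0.52 for MVD. FDPS was at 38.6 and 42.7 CPM in WT and at 58 and 56 CPM in knockout cells, and HSD17B7 at 22.9 and 27.9 CPM and at 36.2 and 35.3 CPM, without overlap in either. The neighbours of HMGCS1 (0.048), IDI1 (-0.026) and SQLE (0.027) had medians near 0. Leaving out the 4 members whose neighbours within 5 Mb had a median beyond 0.3 in either direction, the sterol median was 0.17. Within 1 Mb, the neighbours of FDFT1 also had a positive median, 0.26 (15 genes), beside 0.31 for FDFT1. The part of the neighbourhood in these members' differences was not tested.

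**Figure D4:**
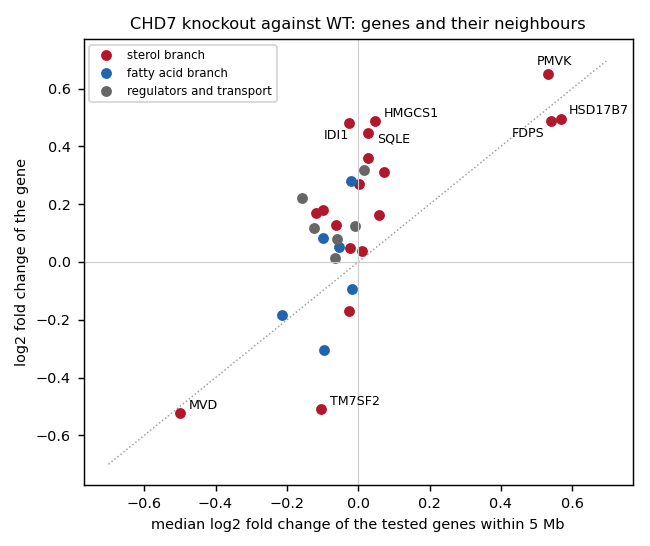
For each gene, the y axis gives its log2 fold change in CHD7 knockout cells and the x axis the median log2 fold change of the expressed genes within 5 Mb, without the gene itself; the dotted line marks equal values. PMVK, FDPS and HSD17B7 (upper right) and MVD (lower left) lie near the line, and HMGCS1, IDI1 and SQLE lie above neighbours with a median close to 0.

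HERVH element deleted cells had the lowest sterol median of the 3 comparisons. The sterol median was 0.086, with 11 of 18 positive, the fatty acid median was 0.029, with 3 of 6 positive, and that of the regulators and carriers was -0.10, with 2 of 6 positive (all genes tested: -0.019). No member was called by edgeR at an FDR below 0.05, against 0.0724% of all genes, or by DESeq2, against 0.0852%, and none reached the study's threshold, against 0.0298% of all genes. At an unadjusted p below 0.05 there was 1 member by edgeR (IDI1), against 2.63% of all genes, and 2 by DESeq2, against 2.03%. Both deleted libraries lay above both WT libraries for 6 of 30 members, 4 of them sterol members, and below for 2, against 17.7% and 20.3% of all genes.

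HMGCS1, at 211 and 284 CPM in deleted cells against 152 and 219 CPM in WT, had the largest difference (log2 fold change 0.42, SE 0.19, FDR = 1), and the groups overlapped. IDI1 was at 55 and 63.2 CPM against 45.7 and 46.7 CPM (0.35, SE 0.16, FDR = 1), without overlap, and ACAT2 at 101 and 115 CPM against 70.9 and 105 CPM (0.29, SE 0.22, FDR = 1), with overlap. Of the regulators, SCAP was at 145 and 162 CPM (log2 fold change -0.27, SE 0.18) and SREBF2 at 327 and 346 CPM (-0.14, SE 0.17), both below the WT values of 170 and 201 CPM and of 353 and 388 CPM. INSIG2 was at 6.16 and 5.18 CPM (-0.23, SE 0.26), SREBF1 at 92.6 and 108 CPM (-0.07, SE 0.25), INSIG1 at 54.4 and 66.9 CPM (0.07, SE 0.18) and STARD4 at 62.8 and 62 CPM (0.12, SE 0.17). Of these, STARD4 alone lay above both of its WT values.

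Each condition library was then compared with each WT library, since the WT libraries differed. All 6 condition libraries had a positive sterol median against WT replicate 1, from 0.19 in HERVH element deleted replicate 1 to 0.88 in HERVH knockdown replicate 2. Against WT replicate 2 the sterol medians were lower throughout. In HERVH knockdown cells they were 0.50 and 0.17 against WT replicates 1 and 2 for replicate 1, with 15 and 14 of 18 members higher, and 0.88 and 0.50 for replicate 2, with 16 and 15 of 18 higher. The sterol median of the knockdown was thus positive in all 4 pairs. In 3 of the 4 it exceeded the 0.32 between the WT libraries themselves. Against WT replicate 1, both CHD7 knockout libraries and HERVH element deleted replicate 2 exceeded 0.32 too. The sterol median of CHD7 knockout was also positive in all 4 pairs. The pairs reuse the same libraries and are not independent of each other. In CHD7 knockout cells the values were 0.56 and 0.22 for replicate 1 and 0.35 and 0.048 for replicate 2, and against WT replicate 2, only 9 of 18 members were higher in replicate 2. In HERVH element deleted cells they were 0.19 and -0.078 for replicate 1 and 0.34 and 0.11 for replicate 2, so that the sign depended on the WT library for replicate 1, while replicate 2 was positive against both, with 17 and 12 of 18 members higher.

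For the fatty acid branch, the choice of WT library decided the sign in 5 of the 6 condition libraries. The medians against WT replicates 1 and 2 were 0.27 and 0.043 in HERVH knockdown replicate 1 and 0.17 and -0.054 in replicate 2. They were 0.24 and -0.022 in CHD7 knockout replicate 1, 0.035 and -0.22 in CHD7 knockout replicate 2, 0.15 and -0.13 in HERVH element deleted replicate 1 and 0.21 and -0.034 in replicate 2. Between the WT libraries themselves the fatty acid median was 0.237. Of the 12 pairs, only HERVH knockdown replicate 1 (0.273) and CHD7 knockout replicate 1 (0.241), both against WT replicate 1, exceeded it. With the GC correction the sign differed between the WT libraries in 3 of the 6, since CHD7 knockout replicate 1 (0.024) and HERVH element deleted replicate 2 (0.0081) were then also positive against WT replicate 2.

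**Figure D5:**
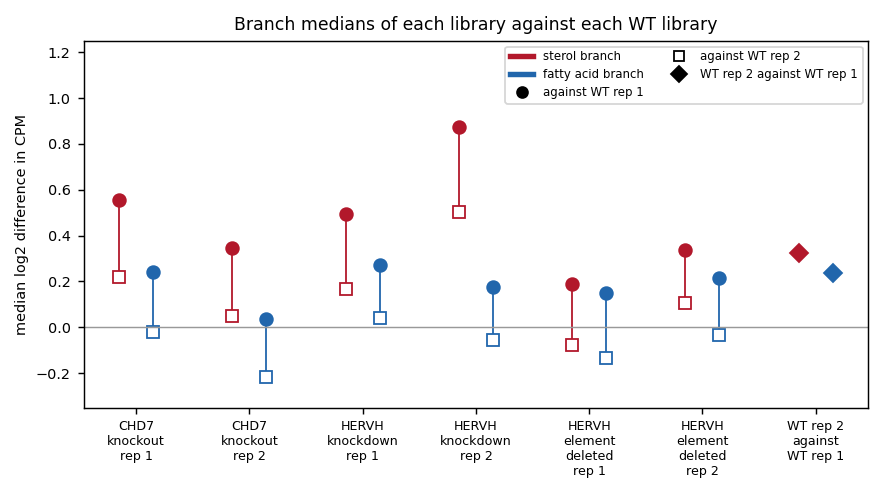
Median log2 difference in CPM over the 18 sterol members (red) and the 6 fatty acid members (blue) for each condition library against WT replicate 1 (filled circles) and WT replicate 2 (open squares), with the WT libraries against each other at the right (diamonds). The sterol symbols of the knockdown and of CHD7 knockout are above 0 against either WT library. Those of HERVH element deleted replicate 1 lie on both sides of 0.

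The branches were also set against each other within each library. The sterol median minus the fatty acid median, each relative to the WT mean, was 0.14 and 0.62 in the HERVH knockdown libraries, 0.28 and 0.26 in the CHD7 knockout libraries and 0.014 and 0.096 in the HERVH element deleted libraries. The WT libraries themselves stood at -0.043 and 0.043, values that mirror each other because their own mean is the zero, so that they give no spread to hold the other libraries against. With the GC correction it was 0.17 and 0.55, 0.27 and 0.21, and -0.034 and 0.12, against -0.034 and 0.034 in WT. The 3 comparisons share the same WT libraries, and the branch differences are descriptions over listed genes, with no test.

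Other genes of these pathways were taken from fixed lists. Of 12 other sterol genes (uptake, trafficking, esterification and side enzymes), none was called in any comparison by edgeR, with 3 at an unadjusted p below 0.05 in CHD7 knockout cells (10.9% of all genes), 3 in the knockdown (19% of all genes) and 0 in the deletion (2.63% of all genes). DESeq2 called 1, AACS, which activates acetoacetate, in CHD7 knockout cells, where it called 3.05% of all genes. Their medians were 0.19 in CHD7 knockout, -0.064 in HERVH knockdown and -0.094 in HERVH element deleted cells, so that in the knockdown they did not share the positive median of the 18 sterol enzymes. LBR, SOAT1 and GGPS1 of this list lie on chromosome 1. In CHD7 knockout cells they differed by 0.46, 0.38 and 0.25, beside neighbour medians of 0.35, 0.61 and 0.21 within 5 Mb. The part of the neighbourhood in the median of 0.19 was not tested. Among the genes of SREBP processing and turnover, MBTPS1 was called in CHD7 knockout cells, where edgeR called 1.81% of all genes. MBTPS1, the protease that makes the first cut in SREBPs, was at 40.8 and 41.8 CPM in WT and rose to 87.6 and 77.3 CPM (log2 fold change 0.998, FDR = 0.00546). It lies on chromosome 16, where its neighbours had a median of -0.23 within 5 Mb but of 0.96 within 1 Mb (11 genes), beside 0.998 for MBTPS1 itself. The window of 1 Mb was added after the data were seen. The call was lost without WT replicate 1 (FDR = 0.0812), WT replicate 2 (FDR = 0.0939) or knockout replicate 1 (FDR = 0.114), fits in which 0.494%, 0.353% and 0.326% of all genes were called.

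Of 22 other fatty acid genes, 3 were called, all in HERVH knockdown cells and by DESeq2 as well, where 2.15% of all genes were called by edgeR and 4.7% by DESeq2. ME1, the malic enzyme that supplies NADPH, was at 8.68 and 9.82 CPM in WT and rose to 20.6 and 18.3 CPM (log2 fold change 1.07, FDR = 0.0271). ELOVL2 and ELOVL5, elongases of polyunsaturated chains, fell: ELOVL2 from 2.26 and 2.34 CPM to 0.657 and 0.583 CPM (-1.87, FDR = 0.031), and ELOVL5 from 223 and 191 CPM to 144 and 112 CPM (-0.70, FDR = 0.0409). The median of the 22 was -0.084 in the knockdown. Of 6 LXR and efflux genes, ABCG1, an exporter of sterol, was called in the knockdown, against the same shares of all genes. There it fell from 16.5 and 16.9 CPM to 5.86 and 7.72 CPM (-1.30, FDR = 0.0167). ABCG1 also lay below both WT values, without being called, in the other comparisons. It was at 9.57 and 12.3 CPM in CHD7 knockout cells (-0.62) and at 13.3 and 12.4 CPM in HERVH element deleted cells (-0.38). In each of these 4 genes the knockdown replicates lay close together and the groups did not overlap, but all 4 calls were lost when either WT library was left out and when only the 4 libraries compared were fitted, settings that called 0.0159% (without WT replicate 1), 0.79% (without WT replicate 2) and 0.263% of all genes.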

How the data were processed

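RNA-seq of 8 libraries of H9 cells was used, 2 in each of 4 conditions, grouped by their labels. The authors depleted rRNA, made strand-specific libraries, mapped reads with STAR (hg19, Ensembl annotation) and ran HTSeq-count on the alignments. Raw read counts were deposited. Tool versions and the strand setting of counting are not given in the sources used here. Rows that name no gene were left out of the library sizes (reads on no feature: 34.9% to 42.5% of the reads listed).

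Counts were analysed with R 4.3.3, edgeR 4.0.16 (TMM, filterByExpr, quasi-likelihood test, all 8 libraries, group as factor, 4 residual degrees of freedom), DESeq2 1.42.0 and limma 3.58.1. Tables and plots were made in Python 3.11.15 (numpy 2.4.6, pandas 2.3.3, matplotlib 3.10.9). FDRs are Benjamini-Hochberg over all 23474 genes tested. Log2 CPM used a prior count of 2. Symbols, positions, exonic lengths and GC content came from GRCh37 annotation. Lengths and GC content were taken over the merged exons of all transcripts, in a later release than the one used for counting. The GC correction was a loess curve per library (span 0.3). Neighbours were tested genes with a mean log2 CPM above 2. The procedure was tested on simulated counts with the same dispersion for every gene and no GC trend between libraries. Of 312 genes changed by 1 on the log2 scale, 307 were recovered, and 31 of 67137 unchanged genes were called. The real libraries differ by GC content, so the simulation does not show how reliable their calls are.

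Counts were read over 14802049 to 23156445 reads per library. The members and lists were chosen with earlier results of these data known. Named were called members, the 3 largest changes in each comparison, the regulators, and called genes of the other lists; others were chosen after their values were seen. A gene covered by this rule is not reported here. Alternatives were RLE scaling, DESeq2, other filters, a fit of the 4 libraries compared, the replicate number as a block, the GC correction and each replicate left out; neighbours within 1 Mb were added after the data were seen.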

Additional observations from a re-analysis of the deposited data

How the results depend on the processing

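The sterol and fatty acid medians of the HERVH knockdown and the sterol medians of all 3 comparisons kept their sign under every alternative run, while the fatty acid medians of CHD7 knockout and HERVH element deleted cells changed sign under some, and no alternative called a member in HERVH element deleted cells. The number of members called in the knockdown, 1 by edgeR, depended on the setting: 3 with RLE scaling, 4 by DESeq2's Wald test, 7 with no expression filter, 0 with only the 4 libraries compared, 3 with the replicate number as a block, 6 with the GC correction, 7 with the GC correction and the block, and 0 to 13 with each replicate left out. The share of all genes called moved with it, from 2.15% by edgeR to 2.51%, 4.7%, 3.54%, 0.263%, 2.72%, 8.52% and 8.03% in that order, and to 0.0159% to 15.8% with each replicate left out. In CHD7 knockout cells, 1 member was called with only the 4 libraries compared (SQLE), and 1 with the GC correction, without and with the block (FDPS). The replicate numbers were not taken to pair the samples, since the labels give nothing but numbers and each comparison has 2 of them. The deviations of same-numbered condition and WT libraries had correlations of -0.233 (CHD7 knockout), 0.286 (HERVH knockdown) and 0.427 (HERVH element deletion) over 12704 genes.

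With each replicate left out in turn, the sterol median ranged from 0.124 to 0.434 in CHD7 knockout, 0.318 to 0.663 in HERVH knockdown and 0.0065 to 0.258 in HERVH element deleted cells. The fatty acid median ranged from -0.111 to 0.138, 0.0011 to 0.265 and -0.0494 to 0.201, and the median of the regulators in the deletion from -0.137 to 0.00998. That last median was -0.0075 with the GC correction and -0.0074 with the block added. With the GC correction, without and with the block, SREBF1 in the deletion became 0.0857 and 0.0895, and in the knockdown SCAP became -0.0035 and -0.0034, SREBF2 -0.0463 and -0.0472, and STARD4 0.0838 and 0.0846. With each replicate left out, the ranges that crossed 0 were, in CHD7 knockout cells, -0.101 to 0.333 for INSIG2, -0.0743 to 0.138 for SCAP and -0.126 to 0.356 for SREBF1. In the deletion they were -0.073 to 0.227 for INSIG1 and -0.276 to 0.214 for SREBF1. In the knockdown they were -0.161 to 0.764 for FASN, -0.256 to 0.09002 for SCD, -0.178 to 0.376 for SCAP, -0.0163 to 0.821 for SREBF1, -0.205 to 0.292 for SREBF2 and -0.388 to 0.0576 for STARD4. With neighbours taken within 1 Mb, the median around MVD was -0.664 and around MBTPS1 0.955. The causes were not tested. With 2 libraries in each group, edgeR called no member in CHD7 knockout or HERVH element deleted cells. The differences of the members there could not be told from the spread between replicates in that fit. In the knockdown this held for all members but ACAT2, whose call was lost with only the 4 libraries compared.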
